A study of Mus musculus with 16 samples.

Results

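The IMP, ELAV and FMR1 families are RNA-binding proteins that accompany neuronal mRNAs from the nucleus to the axon. The levels of their own transcripts in RNA of an axonal and a cell body compartment are described here. The 10 genes were taken by name from the deposited table of 46320 genes: Igf2bp1, Igf2bp2 and Igf2bp3 (IMP family), Elavl1, Elavl2, Elavl3 and Elavl4 (ELAV family), and Fmr1, Fxr1 and Fxr2 (FMR1 family). All 10 had reads, and all 10 passed the expression filter in each comparison. RNA-seq was done on primary motoneurons of mouse embryos (lumbar cord, day 13), enriched by panning with an antibody to p75NTR and grown in microfluidic chambers that separate axons from cell bodies and dendrites. The 4 groups were somatodendritic and axonal RNA of wildtype (+/+) motoneurons, and somatodendritic and axonal RNA of Hnrnpr-/- motoneurons, with 4 libraries each and 16 in total. Hnrnpr-/- mice carry a CRISPR/Cas9 deletion of the exons at the start of the gene for hnRNP R, an RNA-binding protein of motoneuron axons, and were backcrossed to C57Bl/6. CNTF was given to both compartments and BDNF to the axonal compartment alone, in both genotypes. Somatodendritic cDNA was made in a reduced kit volume with fewer PCR cycles than axonal cDNA, so compartment, BDNF and library preparation cannot be told apart.

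IMP proteins (IMP1, IMP2 and IMP3, encoded by Igf2bp1, Igf2bp2 and Igf2bp3) bind mRNAs in the cytoplasm, protect them from decay and carry them in granules. IMP1, also called zipcode-binding protein, takes beta-actin mRNA into growing axons. The ELAV proteins bind AU-rich and U-rich elements in 3' untranslated regions and stabilize the mRNAs that hold them. HuR (Elavl1) is present in most cell types, whereas HuB (Elavl2), HuC (Elavl3) and HuD (Elavl4) are neuronal, and HuD is known for its binding of Gap43 mRNA. FMRP (Fmr1), which is lost in fragile X syndrome, and its paralogues FXR1P and FXR2P travel with ribosomes and repress the translation of bound mRNAs.

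In GRCm39 the IMP genes lie on the minus strand, Igf2bp1 on chromosome 11 (95847989 to 95896770), Igf2bp2 on chromosome 16 (21877759 to 21982049) and Igf2bp3 on chromosome 6 (49062152 to 49200225). The ELAV genes are also on the minus strand, Elavl1 on chromosome 8 (4334781 to 4375104), Elavl2 and Elavl4 on chromosome 4 (91099770 to 91288407 and 110060934 to 110209145) and Elavl3 on chromosome 9 (21926301 to 21963442). On the plus strand are Fmr1 on chromosome X (67722142 to 67761569), Fxr1 on chromosome 3 (34074133 to 34124129) and Fxr2 on chromosome 11 (69523788 to 69544123).

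A pair of sequences illustrates how these genes act and how they are regulated. The first is the zipcode at the start of the 3' untranslated region of Actb, shown because IMP1 is known to read its bipartite motif. CGGAC followed by ACAC after a gap of 10 to 25 bases was searched on the sense strand in the first 100 bases of 3' untranslated regions (GENCODE transcripts, GRCm39). It was present in 26 of 19724 such windows, or 0.13%. In Actb it lies on the minus strand, at chr5:142889524-142889551, and capitals mark both parts of the motif.
Actb zipcode: CGGACtgttactgagctgcgttttACAC
The other is the seed match of let-7, a microRNA family known to repress IMP mRNAs. It is shown because it is a feature of the IMP family that the choice of genes did not use. In mature let-7a-5p (RefSeq), capitals mark the seed, bases 2 to 8, which 9 let-7 entries of the table share.
mmu-let-7a-5p: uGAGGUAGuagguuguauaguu
The match to this seed, CTACCTC on the sense strand, occurred 4 times in the 3' untranslated region of Igf2bp1, 1 time in that of Igf2bp2 and 1 time in that of Igf2bp3. The ELAV and FMR1 family transcripts held 0 matches. Of 20841 3' untranslated regions of protein-coding genes, 9.9% held a match, and the share was 30.9% among those within 1.5-fold of the length of Igf2bp1. At least 4 matches were present in 0.27% of these regions of like length. For the lengths of Igf2bp2 and Igf2bp3 the share with a match was 12.1% and 13.8%, and for those of the ELAV and FMR1 genes it was 5.1% to 32.8%. The sites below, with the seed match in capitals, are from minus-strand genes at chr11:95852605-95852626 (the match nearest to the stop codon of Igf2bp1), chr16:21878224-21878245 (Igf2bp2) and chr6:49063722-49063743 (Igf2bp3), all in GRCm39. The libraries hold polyadenylated RNA, and let-7 levels were not analysed here.
Igf2bp1 site: gctgtgcgaagtaaaCTACCTC
Igf2bp2 site: acacacaaataaaagCTACCTC
Igf2bp3 site: tgcatttttactcaaCTACCTC

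Total counts per library ranged from 22024923 to 34864151. Levels are in CPM, counts per 1000000 counted reads after TMM scaling of library sizes, and a library with 0 reads on a gene would allow up to 3 counts, or 0.0811 to 0.141 CPM, a limit for counting error only. Hnrnpr, the targeted gene, had 120 to 422 CPM in the 8 +/+ libraries and 0.545 to 1.16 CPM in the 8 Hnrnpr-/- libraries, so each library matched its genotype label. Axonal libraries varied more than somatodendritic ones (common dispersion 0.275 against 0.0499). The compartments also differed in marker genes of cell types. The summed level of 10 motoneuron markers, most of which came from Nefl, was 1072 to 2027 CPM in somatodendritic and 42.5 to 1092 CPM in axonal libraries. Among the defining markers, the 8 somatodendritic libraries had 3.90 to 11.6 CPM of Slc18a3, 3.89 to 8.03 CPM of Isl1 and 2.72 to 7.74 CPM of Slc5a7, whereas Chat reached at most 1.31 CPM and Mnx1 had 0 reads. Radial glia or astrocyte markers summed to 1137 to 2336 CPM in somatodendritic and 3481 to 6322 CPM in axonal libraries, and markers of proliferating cells to 148 to 235 and 188 to 1610 CPM. Markers of fibroblasts or meningeal cells summed to 114 to 1402 and 326 to 4056 CPM, those of oligodendroglia or Schwann cells to 204 to 1039 and 201 to 1789 CPM, and those of microglia to 9.34 to 115 and 0.540 to 303 CPM. In bulk RNA, fewer cells of a type and less RNA per cell cannot be told apart.

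The compartments were compared within each genotype. In +/+ motoneurons, all 3 IMP transcripts and Fxr1 were higher in axonal than in somatodendritic RNA, and the 3 neuronal ELAV transcripts and Fxr2 were lower, at an adjusted p under 0.05 in edgeR (quasi-likelihood test, Benjamini-Hochberg adjustment over 19964 genes). The 4 higher members compare with 30.1% of all genes tested that were higher in axonal RNA, and the 4 lower members with 27.4% that were lower. Counted without regard to the test, the libraries of the compartments did not overlap for 3 members that were higher (Igf2bp1, Igf2bp3 and Fxr1) and 4 that were lower in axonal RNA (the ELAV genes, with Elavl1, which was not called), against 24.8% and 27.6% of all genes. Hnrnpr-/- motoneurons, compared through other libraries but in the same fit with its common estimate of the spread, gave 4 higher members (background 27.5%) and 4 lower ones (background 26.8%). There, Fmr1 took the place of Fxr2 among the lower members. Without overlap were Igf2bp1, Igf2bp2 and Fxr1 among the higher genes, and Elavl2, Elavl3, Elavl4 and Fmr1 among the lower ones, against 24.1% and 27.3% of all genes. The median log2 fold change of the 10 members was -0.31 in +/+ and -0.26 in Hnrnpr-/- motoneurons, and that of all genes tested was 0.07 and -0.00282. Scaling by library totals in place of TMM factors moved the median of all genes by 0.15 and 0.12 on the log2 scale, and the 10 members kept their directions.

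**Figure D1:**
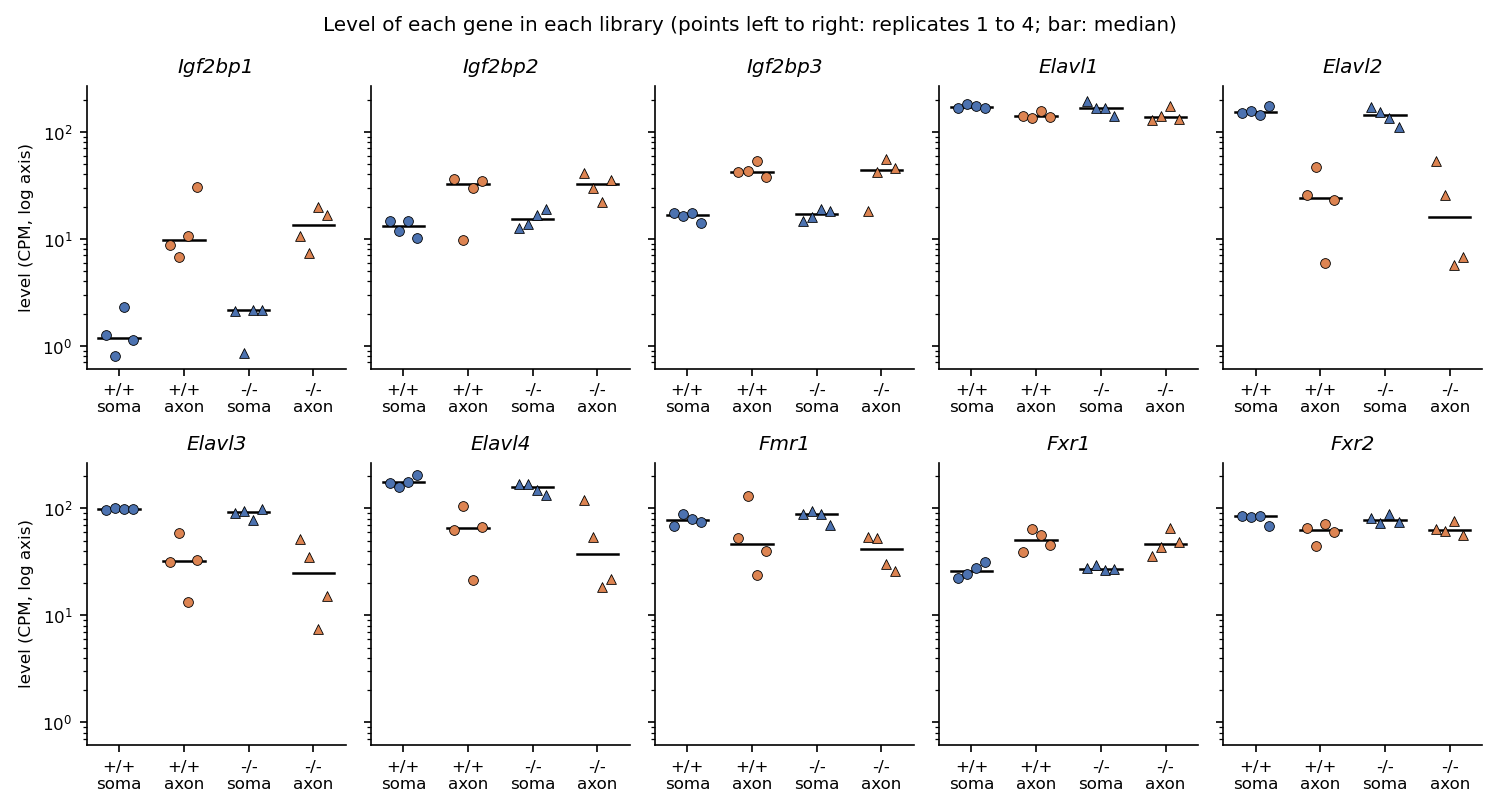
Level of the 10 genes in every library, in CPM on a log axis, for somatodendritic (blue) and axonal (orange) RNA of +/+ (circles) and Hnrnpr-/- (triangles) motoneurons, with points from left to right for replicates 1 to 4 and a bar at the median of each group. The axonal points of Igf2bp1 lie between 6.76 and 30.7 CPM, above all its somatodendritic points, and those of Elavl2, Elavl3 and Elavl4 spread widely below theirs.

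Igf2bp1, which encodes the zipcode-binding protein IMP1, was the scarcest of the 10 transcripts in somatodendritic RNA by CPM and rose in axonal RNA of both genotypes. In +/+ motoneurons it had 1.27, 0.810, 2.32 and 1.13 CPM in somatodendritic replicates 1 to 4 and 8.72, 6.76, 10.6 and 30.7 CPM in axonal replicates 1 to 4. For Hnrnpr-/- motoneurons the values were 2.14, 0.866, 2.18 and 2.15 CPM and 10.6, 7.39, 19.8 and 16.6 CPM. Every axonal library thus lay above every somatodendritic one, and +/+ axonal replicate 4 stood highest. The fitted difference was 10.2-fold in +/+ (log2 fold change 3.36, standard error 0.53, adjusted p = 0.000175) and 7.40-fold in Hnrnpr-/- motoneurons (2.89, standard error 0.52, adjusted p = 0.000492). Without +/+ axonal replicate 4 the +/+ log2 fold change was 2.699, still past the threshold. Its somatodendritic values rest on 17.5 to 55.5 deposited counts per library, and its axonal values on 238.5 to 1004.5.

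Igf2bp3, which encodes IMP3, rose 2.69-fold in axonal RNA of +/+ motoneurons (log2 fold change 1.43, standard error 0.26, adjusted p = 0.000417). Its levels were 17.6, 16.4, 17.4 and 14.1 CPM in somatodendritic and 42.2, 42.7, 53.3 and 37.5 CPM in axonal replicates 1 to 4, without overlap. The Hnrnpr-/- libraries had 14.5, 16.02, 19.02 and 18.4 CPM and 18.0, 42.5, 55.3 and 46.1 CPM (log2 fold change 1.25, standard error 0.26, adjusted p = 0.0011). There the axonal replicate 1 fell within the somatodendritic range, and the other 3 axonal libraries lay above it. In GENCODE, 19.3% of the exon bases of Igf2bp3 are also exon of Malsu1 on the opposite strand (13.1 CPM over the 16 libraries). The cDNA kit does not mark strand, so reads from the shared bases cannot be told apart.

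Igf2bp2, which encodes IMP2, had 10.1 to 14.8 CPM in +/+ somatodendritic libraries and 36.6, 9.71, 29.9 and 34.6 CPM in axonal replicates 1 to 4. Replicate 2 lay below the somatodendritic range and the other 3 above it. The fitted log2 difference was 1.11 (standard error 0.33, adjusted p = 0.00975). The Hnrnpr-/- ranges of 12.6 to 19.005 and 21.9 to 41.4 CPM did not overlap, and the fitted difference was 1.05 (standard error 0.33, adjusted p = 0.0137). Summed over the family, IMP transcripts of +/+ motoneurons stood at 30.6 ± 4.20 CPM for cell bodies and 85.8 ± 18.8 CPM for axons (SD, n = 4), and those of Hnrnpr-/- motoneurons at 34.3 ± 5.11 and 86.3 ± 13.6 CPM. Igf2bp1 accounted for 4.44 ± 1.67% of IMP reads in +/+ somatodendritic and 15.6 ± 9.51% in +/+ axonal libraries.

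The 3 neuronal members of the ELAV family fell in axonal RNA. Elavl2, which encodes HuB, had 150, 155, 144 and 175 CPM in somatodendritic and 25.6, 47.4, 5.91 and 22.9 CPM in axonal replicates 1 to 4 of +/+ motoneurons. Hnrnpr-/- motoneurons had 170, 152, 133 and 111 CPM and 53.1, 25.6, 5.67 and 6.80 CPM. All axonal values lay below all somatodendritic values in both genotypes. The decrease was 6.11-fold in +/+ (log2 fold change -2.61, standard error 0.64, adjusted p = 0.00321) and 6.21-fold in Hnrnpr-/- motoneurons (-2.63, standard error 0.64, adjusted p = 0.00343). The Hnrnpr-/- log2 fold change was -3.49 without axonal replicate 1, the highest of its group, and -3.24 in limma-voom with sample quality weights.

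Elavl4, which encodes HuD, had 173, 159, 178 and 203 CPM in +/+ somatodendritic and 63.0, 105, 21.6 and 67.6 CPM in +/+ axonal replicates 1 to 4. The Hnrnpr-/- values were 169, 167, 147 and 133 CPM and 121, 53.6, 18.4 and 21.9 CPM. The compartments did not overlap in either genotype. Log2 fold changes were -1.47 (standard error 0.51, adjusted p = 0.0231) and -1.52 (standard error 0.51, adjusted p = 0.0205). The +/+ call was lost without somatodendritic replicate 4 (adjusted p = 0.0541) or axonal replicate 3 (0.0666), and the Hnrnpr-/- call without axonal replicate 3 (0.0592) or 4 (0.0585). Without Hnrnpr-/- axonal replicate 1, the highest of its group, the log2 fold change was -2.30.

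Elavl3, which encodes HuC, lay between 97.4 and 100.1 CPM in the 4 +/+ somatodendritic libraries, and its axonal values were 31.8, 59.2, 13.2 and 33.2 CPM in replicates 1 to 4. The Hnrnpr-/- libraries ranged from 77.6 to 98.4 CPM and from 7.41 to 52.0 CPM. Again the compartments did not overlap. The log2 fold changes were -1.52 (standard error 0.48, adjusted p = 0.0141) and -1.72 (standard error 0.48, adjusted p = 0.0079).

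Elavl1, which encodes the broadly expressed HuR, did not follow its neuronal paralogues. It had 167, 183, 174 and 166 CPM in somatodendritic and 141, 134, 158 and 139 CPM in axonal replicates 1 to 4 of +/+ motoneurons. These groups did not overlap, yet the difference missed the threshold in edgeR (log2 fold change -0.27, 95% interval -0.55 to 0.00871, adjusted p = 0.0895), and it passed in limma-voom with sample quality weights (-0.29, adjusted p = 0.0357). In Hnrnpr-/- motoneurons the values were 192, 168, 168 and 141 CPM and 130, 140, 175 and 133 CPM, with overlap (-0.21, 95% interval -0.49 to 0.07, adjusted p = 0.194). With 3 paralogues lower, the Elavl1 share of ELAV reads was 28.6 ± 2.05% (SD, n = 4) in +/+ somatodendritic and 56.3 ± 17.0% in +/+ axonal libraries. In Hnrnpr-/- motoneurons the share was 30.2 ± 1.44% and 62.9 ± 21.5%, and the axonal shares ranged from 36.6% to 84.8%. The sum of the family was 605 ± 25.4 and 267 ± 60.6 CPM in +/+ motoneurons.

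**Figure D2:**
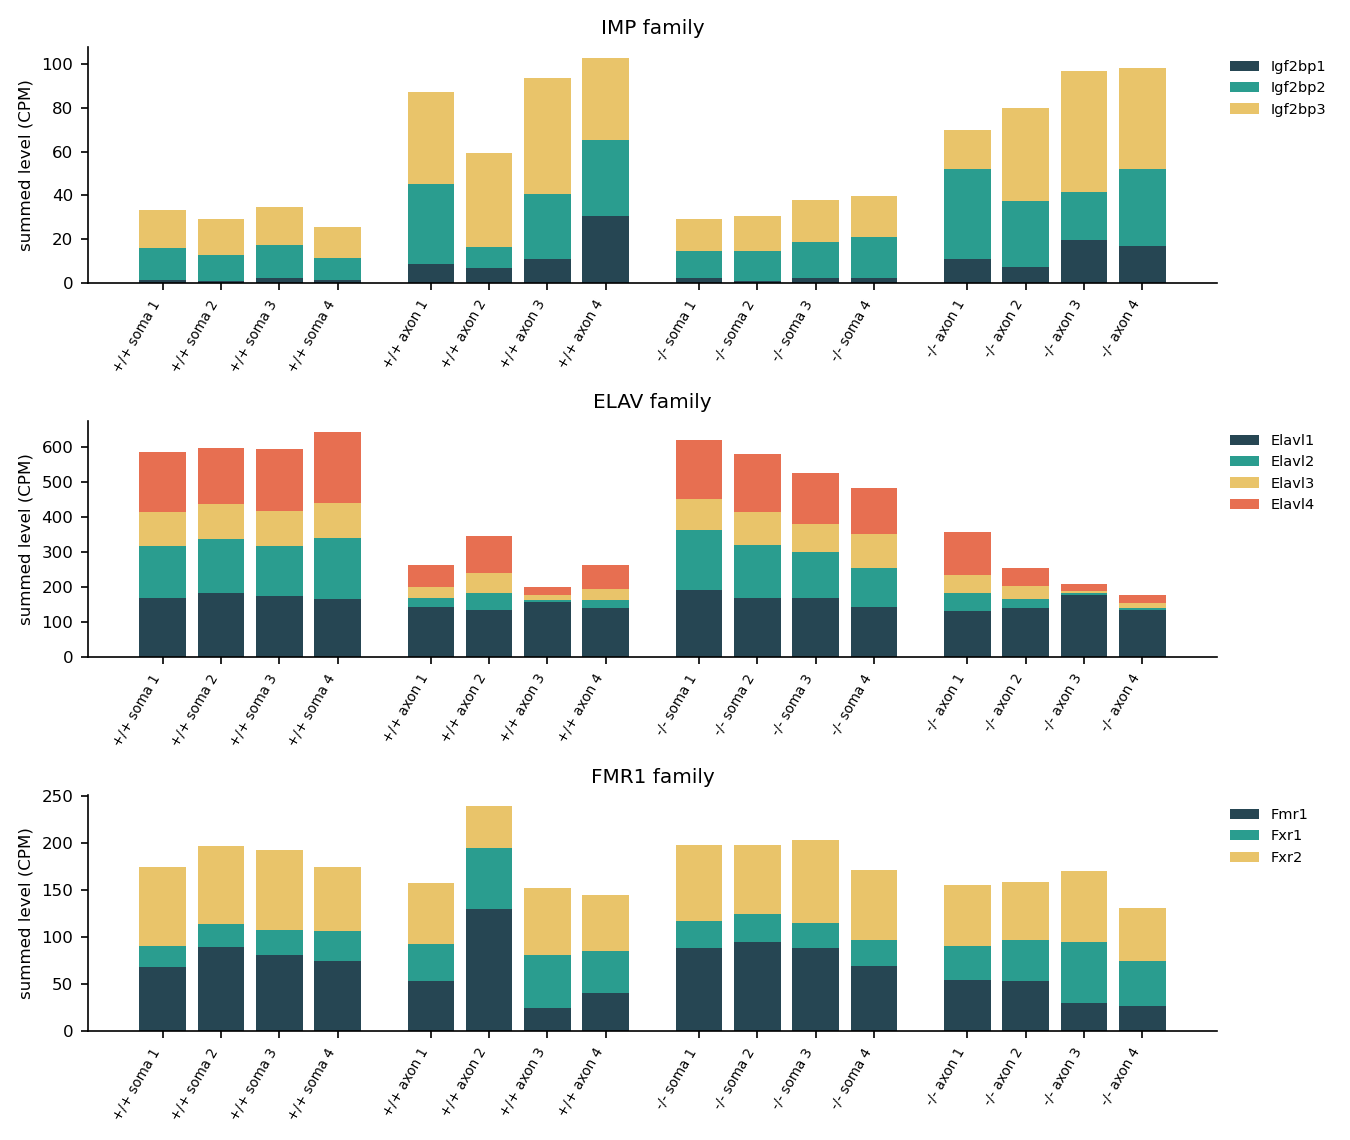
Summed level of each family in each of the 16 libraries, in CPM from 0, split by gene. ELAV reads fall in axonal libraries while the Elavl1 portion keeps nearly its height (130 to 175 CPM in the 8 axonal libraries), and IMP reads sum to 59.2 to 103 CPM in +/+ axonal against 25.3 to 34.5 CPM in +/+ somatodendritic libraries.

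The axonal levels of the neuronal ELAV genes moved together from library to library. The lowest axonal library was Hnrnpr-/- replicate 3 for each of Elavl2, Elavl3 and Elavl4, followed by +/+ replicate 3 and Hnrnpr-/- replicate 4. Between the highest and the lowest axonal library the ratio was 9.37 for Elavl2, 7.98 for Elavl3 and 6.54 for Elavl4, whereas it was 1.35 for Elavl1. The same 3 libraries were the lowest in Fmr1, and they had the lowest sums of motoneuron markers (42.5, 97.1 and 140 CPM, against 375 to 1092 CPM in the other 5 axonal libraries). Without them, a choice made after seeing the data, the +/+ log2 fold changes were -2.24 for Elavl2, -1.21 for Elavl3 and -1.14 for Elavl4, and those of Hnrnpr-/- motoneurons -1.81, -1.01 and -0.78. All of these remained past the threshold (largest adjusted p = 0.0488), with 3 +/+ and 2 Hnrnpr-/- axonal libraries left. The libraries kept had 375 to 1092 CPM of motoneuron markers and the somatodendritic ones 1072 to 2027 CPM, so the compartments still differed in these markers. Of 8 motoneuron markers tested, 5 fell in axonal RNA in each genotype and 0 rose, where 27.4% of all genes fell in +/+ and 26.8% in Hnrnpr-/- motoneurons. The median log2 fold changes of these markers were -2.44 and -1.76. The part of motoneuron RNA content in the ELAV values was not tested.

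IMP levels were set beside other marker lists, where 30.1% of all genes rose in axonal RNA of +/+ and 27.5% in that of Hnrnpr-/- motoneurons. All 6 proliferation markers rose in axonal RNA in each genotype, and 7 of 10 radial glia or astrocyte markers rose in +/+ and 5 of 10 in Hnrnpr-/- motoneurons. Of fibroblast or meningeal markers 3 of 9 rose in each genotype, of oligodendroglia or Schwann cell markers 1 of 7 tested, and of microglia markers 0 of 6. The median log2 fold changes in +/+ and Hnrnpr-/- motoneurons were 2.04 and 2.15 for proliferation, 1.16 and 0.60 for radial glia or astrocyte, 2.03 and 0.94 for fibroblast or meningeal, 0.26 and 0.77 for oligodendroglia or Schwann cell, and 0.40 and 0.79 for microglia markers, where those of all genes were 0.07 and -0.00282. Hnrnpr-/- axonal replicate 1 had the lowest axonal sum of proliferation markers (188 CPM, within the somatodendritic range) and the highest of motoneuron markers (1092 CPM). In that library Igf2bp3 was at 18.0 CPM, a somatodendritic level, whereas Igf2bp1 was at 10.6 CPM, above every somatodendritic library. Igf2bp2 had its highest axonal level there, at 41.4 CPM. The library with the most Igf2bp1, +/+ axonal replicate 4, had the next lowest proliferation sum (330 CPM) and the highest sum of fibroblast or meningeal markers among the 16 libraries (4056 CPM). The axonal libraries with the least Igf2bp1, +/+ replicate 2 and Hnrnpr-/- replicate 2, had the lowest axonal sums of these markers (326 and 575 CPM). The next lowest axonal sum (1318 CPM) was that of Hnrnpr-/- replicate 3, which had the next highest Igf2bp1 level (19.8 CPM). The part of other cell types in the IMP values was not tested.

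**Figure D3:**
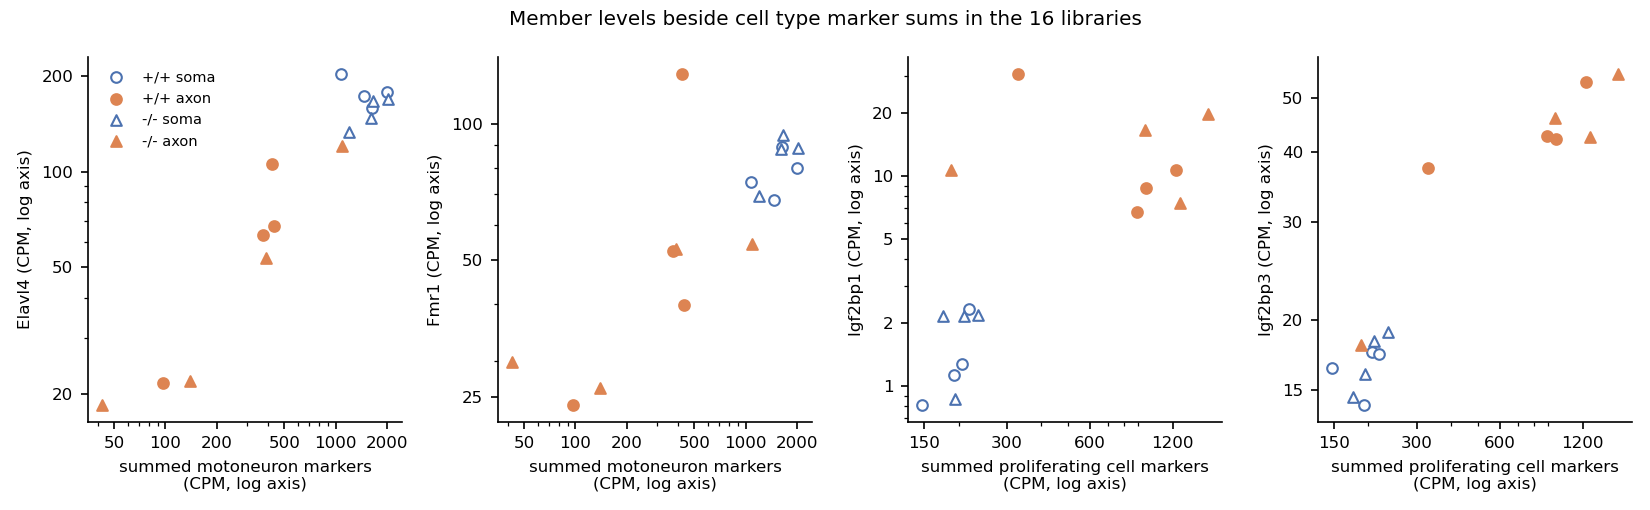
Levels of Elavl4 and Fmr1 against the summed motoneuron markers, and of Igf2bp1 and Igf2bp3 against the summed markers of proliferating cells, in CPM on log axes, with 1 point for each of the 16 libraries (open, somatodendritic; filled, axonal; circles, +/+; triangles, Hnrnpr-/-). The 3 axonal libraries under 200 CPM of motoneuron markers hold the lowest Elavl4 and Fmr1 values, and the points of a compartment share its library preparation.

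Within the FMR1 family the members differed in direction. Fxr1, which encodes FXR1P, had 22.1, 24.1, 27.4 and 31.5 CPM in +/+ somatodendritic and 39.4, 64.7, 56.6 and 45.3 CPM in +/+ axonal replicates 1 to 4. The Hnrnpr-/- levels were 26.6 to 29.6 CPM and 36.2 to 64.9 CPM. The compartments did not overlap in either genotype, and the increase was 1.96-fold (log2 fold change 0.97, standard error 0.20, adjusted p = 0.000868) and 1.74-fold (0.80, standard error 0.19, adjusted p = 0.00341). Fxr1 shares 4.07% of its exon bases in GENCODE with Dnajc19 on the opposite strand (26.6 CPM), and reads there cannot be told apart.

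Fmr1 itself was the most uneven member of its family. It had 67.9, 89.0, 80.004 and 74.6 CPM in +/+ somatodendritic and 52.4, 129, 24.0 and 39.8 CPM in +/+ axonal replicates 1 to 4. In Hnrnpr-/- motoneurons the values were 88.4, 94.8, 88.0 and 69.3 CPM and 54.3, 53.0, 29.9 and 26.2 CPM. Axonal replicate 2 of +/+ motoneurons was above all somatodendritic libraries, and the other 7 axonal libraries were below them. That library also had the highest sum of 5 nuclear RNA markers of all 16 (2607 CPM, against 613 to 1700 CPM in the other 15). Most of this sum was Malat1 (2124 CPM). Of the 5 markers, 2 rose and 2 fell in +/+ axonal RNA, where 30.1% of all genes rose and 27.4% fell. The part of nuclear RNA in the Fmr1 level of that library was not tested. The +/+ difference missed the threshold in edgeR (log2 fold change -0.34, 95% interval -1.18 to 0.49, adjusted p = 0.468), but without +/+ axonal replicate 2 it was -1.01 (adjusted p = 0.0092). With all libraries it passed in limma-voom with sample quality weights (-0.72, adjusted p = 0.0215). In Hnrnpr-/- motoneurons Fmr1 fell 2.08-fold (-1.06, standard error 0.39, adjusted p = 0.0336), and the call was lost when axonal replicate 3 (0.101) or 4 (0.0946), or somatodendritic replicate 1, 2 or 3 was left out (0.0749, 0.0772 and 0.0598), under scaling by library totals (0.0583), and without the axonal libraries low in motoneuron markers (-0.62, adjusted p = 0.187). The genotypes were not shown to differ in this contrast (difference -0.72, 95% interval -1.89 to 0.46, unadjusted p = 0.215 in edgeR), and without +/+ axonal replicate 2 the difference was -0.05.

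Fxr2, which encodes FXR2P, had 84.6, 83.8, 84.6 and 68.2 CPM in +/+ somatodendritic and 64.9, 44.9, 71.5 and 59.7 CPM in +/+ axonal replicates 1 to 4. Somatodendritic replicate 4 lay below axonal replicate 3, and all other libraries were separated. Its log2 fold change was small at -0.41 (standard error 0.15, adjusted p = 0.0308), and the call was lost under scaling by library totals (-0.26, adjusted p = 0.132), under either other filter, in a fit of these 2 groups, and without any of 7 single libraries. Ranges of 73.6 to 88.3 and 56.7 to 75.4 CPM were found in Hnrnpr-/- motoneurons (-0.31, 95% interval -0.63 to 0.02, adjusted p = 0.104). The share of FMR1 family reads from Fxr1 was 14.3 ± 2.65% (SD, n = 4) in +/+ somatodendritic and 30.2 ± 5.34% in +/+ axonal libraries.

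Levels of different genes were compared per kilobase of the deposited exon length. In +/+ somatodendritic RNA, Elavl4 and Elavl1 stood at 27.8 ± 2.90 and 26.9 ± 1.21 CPM per kilobase (SD, n = 4), within their spread of each other, followed by Fxr2 at 23.3 ± 2.34, Elavl3 at 19.1 ± 0.242 and Fmr1 at 15.1 ± 1.73. Fxr1 at 8.27 ± 1.29, Elavl2 at 4.81 ± 0.411 and Igf2bp2 at 3.29 ± 0.575 came next, and Igf2bp3 at 1.16 ± 0.113 and Igf2bp1 at 0.165 ± 0.0780 were lowest. In +/+ axonal RNA, Elavl1 stood at 22.3 ± 1.598 CPM per kilobase, and Fxr2 at 17.5 ± 3.28 and Fxr1 at 16.2 ± 3.57 lay within their spread of each other. Fmr1 at 11.9 ± 9.07, Elavl4 at 10.1 ± 5.35, Igf2bp2 at 7.10 ± 3.16 and Elavl3 at 6.67 ± 3.67 overlapped. Igf2bp3 at 3.11 ± 0.473, Igf2bp1 at 1.69 ± 1.33 and Elavl2 at 0.787 ± 0.526 were lowest. This order depends on the annotation. The exon lengths of Elavl2, Fxr1 and Elavl1 are 32397, 3177 and 6418 bases in the deposited table and 9761, 9196 and 14039 bases in GENCODE. With GENCODE lengths, an alternative chosen after seeing the data, Elavl4 at 31.98 ± 3.34, Fxr2 at 20.98 ± 2.10 and Elavl2 at 15.97 ± 1.36 CPM per kilobase were the highest in +/+ somatodendritic RNA, and Igf2bp3 at 1.87 ± 0.184 came before Igf2bp2 at 1.59 ± 0.279. In +/+ axonal RNA, Fxr2 at 15.7 ± 2.96, Elavl4 at 11.6 ± 6.15 and Elavl1 at 10.2 ± 0.731 CPM per kilobase were then the highest, and Fxr1 stood at 5.60 ± 1.23. Igf2bp1 was lowest in both compartments with these lengths.

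None of the 10 transcripts differed between the genotypes at the thresholds used. In axons, 0 of 10 members passed an adjusted or an unadjusted p of 0.05 in edgeR, in a fit of the 8 axonal libraries. Of 18957 genes tested, 1 or 0.00528% passed the adjusted threshold, and it was Hnrnpr (log2 fold change -7.93, standard error 0.56, adjusted p = 0.00391). At the unadjusted threshold 137 genes or 0.723% passed. Member log2 fold changes in axons ran from -0.61 for Fmr1 (95% interval -1.75 to 0.53, unadjusted p = 0.257) to 0.22 for Igf2bp2 (-0.67 to 1.11). The intervals were narrow for Elavl1 (0.02, from -0.37 to 0.40) and Fxr2 (0.09, from -0.35 to 0.54) and wide for Igf2bp1 (-0.04, from -1.22 to 1.15) and Elavl2 (-0.19, from -1.97 to 1.59). A 2-fold difference in at least 1 direction lay within the intervals of 6 members (Igf2bp1, Igf2bp2, Elavl2, Elavl3, Elavl4 and Fmr1) and outside those of Igf2bp3, Elavl1, Fxr1 and Fxr2. Single libraries moved 4 of these axonal values by over 1.5-fold. Without +/+ replicate 2 the log2 fold change of Fmr1 was 0.07, and without +/+ replicate 4 that of Igf2bp1 was 0.64. Without Hnrnpr-/- replicate 1 it was -1.03 for Elavl2 and -1.05 for Elavl4. None of these passed the adjusted threshold.

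In the somatodendritic compartment the same holds with narrower intervals. There, too, 0 of 10 members passed either threshold, against 0.00557% (Hnrnpr alone) and 2.62% (471 genes) of 17961 genes tested. The member log2 fold changes ran from -0.20 for Elavl4 (95% interval -0.45 to 0.06, unadjusted p = 0.116) to 0.42 for Igf2bp1 (-0.43 to 1.27). For the 9 members other than Igf2bp1 the intervals lay between -0.45 and 0.68. A test of whether the genotype effect differed between the compartments gave 0 members at either threshold. Among all genes it gave 0, or 0%, past the adjusted threshold in edgeR, 1 in DESeq2, and 265 genes or 1.33% at an unadjusted p under 0.05 in edgeR.

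**Figure D4:**
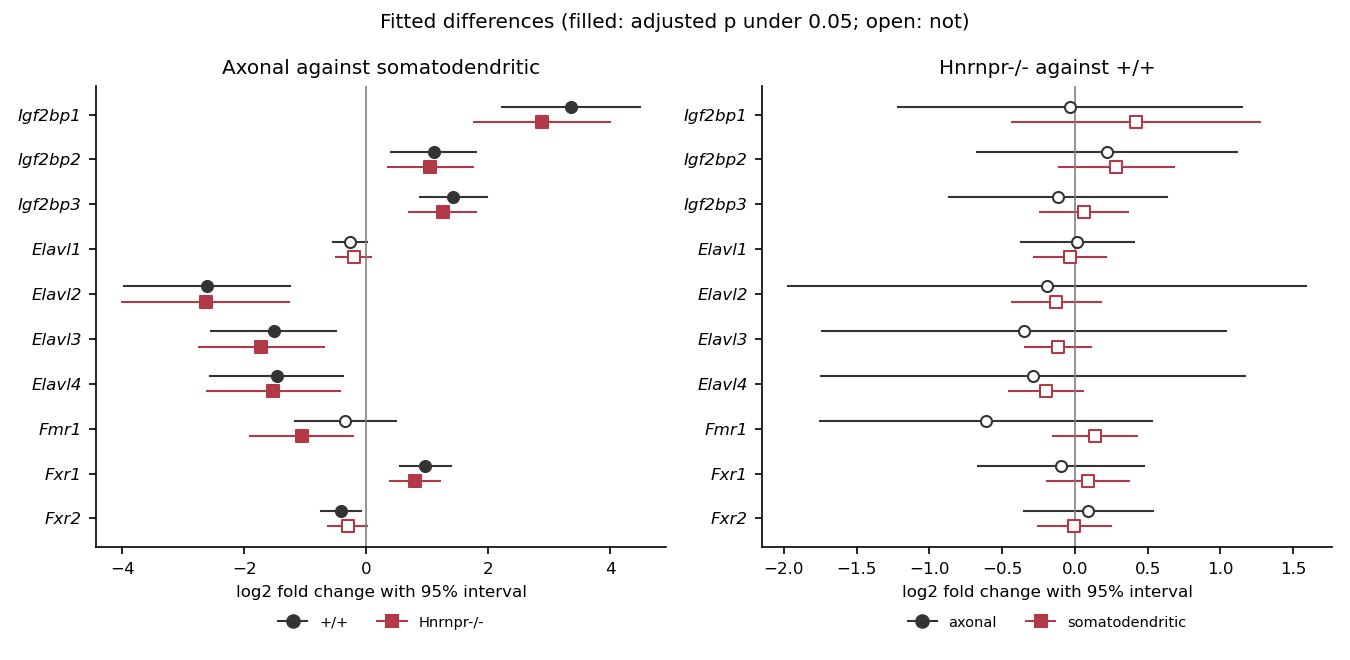
Fitted log2 fold changes of the 10 genes with 95% intervals, for axonal against somatodendritic RNA in each genotype (left) and Hnrnpr-/- against +/+ in each compartment (right), where filled symbols mark an adjusted p under 0.05. The IMP genes and Fxr1 lie to the right of 0 and Elavl2, Elavl3 and Elavl4 to the left in both genotypes, and every genotype interval includes 0.

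A list of 23 other RNA-binding proteins of transport granules held genes that moved either way. In axonal RNA of +/+ motoneurons 7 of 23 rose and 9 fell, where 30.1% of all genes rose and 27.4% fell, and the median log2 fold change was -0.20. In Hnrnpr-/- motoneurons 4 rose and 11 fell (median -0.44), against 27.5% and 26.8% of all genes. The largest increases in +/+ were those of Mbnl2, a splicing and localization factor (log2 fold change 2.60), Purb, which binds purine-rich single strands (1.54), and Fubp3, a KH-domain protein of dendritic mRNA transport (1.11). Cpeb2, Cpeb3 and Cpeb4, which bind the cytoplasmic polyadenylation element, had the largest decreases (-2.25, -2.10 and -1.85).

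Proteins that share the AU-rich elements with the ELAV family gave 3 increases and 2 decreases among 8 genes in each genotype, where 30.1% of all genes rose and 27.4% fell in +/+ and 27.5% and 26.8% in Hnrnpr-/- motoneurons. The 3 that rose in +/+ axonal RNA were Zfp36 (log2 fold change 4.02), Zfp36l1 (2.86) and Zfp36l2 (1.56), whose products are known to promote the decay of AU-rich mRNAs. Khsrp (-0.76) and Celf1 (-0.43), which encode further decay and translation factors, fell there. The list's median was 0.12 in +/+ and 0.05 in Hnrnpr-/- motoneurons. Among 8 partners of FMRP, 2 rose and 3 fell in each genotype, with medians of -0.27 and -0.29, beside the same shares of all genes. Of the CYFIP proteins that link FMRP to the cap-binding factor eIF4E, Cyfip1 rose (0.95) and Cyfip2 fell (-2.50) in +/+ motoneurons. There, Mov10, an RNA helicase, rose (1.65), and Dicer1 (-1.13) and Ago2 (-0.57) of the microRNA pathway fell. In Hnrnpr-/- motoneurons Ago2 missed the threshold (-0.44, adjusted p = 0.0583), and Nufip2 was the other lower gene (-1.09, adjusted p = 0.00277, named after its values were seen).

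The known target mRNAs of IMP1, HuD or FMRP were a list of 14, of which 4 rose and 7 fell in axonal RNA of +/+ motoneurons (median log2 fold change -0.89), and 4 rose and 6 fell in Hnrnpr-/- motoneurons (median -1.02). Of all genes, 30.1% rose and 27.4% fell in +/+ motoneurons, and 27.5% and 26.8% in Hnrnpr-/- motoneurons. Actb, the IMP1 target with the zipcode shown above, had 3490 to 4044 CPM in +/+ somatodendritic and 5093 to 17668 CPM in axonal libraries (log2 fold change 1.29, adjusted p = 0.00425). Other IMP1 targets that rose were Cd44, the hyaluronan receptor (4.39), and the imprinted noncoding RNA H19 (3.70), and Igf2 had 1.27 (adjusted p = 0.447). Bdnf, a neurotrophin, rose by 2.12. Among HuD targets, Gap43 fell from a range of 953 to 1105 CPM to one of 154 to 530 CPM (-1.38, adjusted p = 0.0301) in +/+ motoneurons but missed the threshold in Hnrnpr-/- motoneurons (-1.20, adjusted p = 0.0562), and Nrn1, which encodes neuritin (-2.21), and Mapt, which encodes tau (-1.57), fell in both. FMRP targets that fell were Camk2a (-2.45), Map1b (-1.99), Dlg4 (-1.43) and App (-0.88), while Arc had -0.89 (adjusted p = 0.294). Myc had 0.58 (adjusted p = 0.0649). In these 4 lists, 0 genes passed the adjusted threshold for the genotype in either compartment.

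The genes most like 3 of the members over the 16 libraries were found by the root mean square difference of log2 CPM centred on each gene's mean, among genes of at least 10 CPM. For Igf2bp1 they were Msn (difference 0.32 on the log2 scale), Cast (0.34) and Plod2 (0.37), where the median of 11227 genes was 1.70. Elavl4 was nearest to Tmeff1 (0.15) and Mblac2 (0.16), with a median of 1.16. The nearest genes to Fmr1 were Gmfb, Pja1 and Hectd2 (0.21, 0.22 and 0.22), with a median of 0.82.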

How the data were processed

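The authors trimmed reads, aligned them with STAR 2.7.2b to GRCm39 and counted them on RefSeq exons with featureCounts 1.6.4 in the reverse-strand setting. They deposited unnormalized estimated counts per gene, in which a read that aligns to several places, or overlaps more than 1 gene, is split into fractions. The kit does not mark strand, and cDNA copies carried no molecular identifiers. Genotype, compartment and replicate were read from the titles of the samples, and the study describes 4 biological replicates.

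Counts were rounded, filtered by expression per group and scaled by TMM. Tests were two-sided quasi-likelihood tests in edgeR 4.0.16 (R 4.3.3) with p-values adjusted over every gene tested (Benjamini-Hochberg). Compartments were compared in a fit of all 16 libraries, genotypes in separate fits of the 8 libraries of a compartment because their spread differed. Standard errors are the absolute log2 fold change over the root of the F statistic. Alternatives were other scalings and filters, unrounded counts, DESeq2 1.42.0, limma-voom with sample quality weights (limma 3.58.1), other sets of libraries, the replicate number as a block and each library left out.

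Same-numbered compartment libraries of Hnrnpr-/- motoneurons deviated together (correlations 0.15 to 0.59, all over 0.1). Of these axonal libraries, 3 of 4 correlated best with the somatodendritic library of their own number. The main fits did not pair libraries, and the replicate number entered only as a block among the alternatives. The block changed no call of the 10 genes.

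The members and lists were chosen with earlier results of these data known. Genes named from a list are its 3 largest changes in each direction past the threshold in +/+ motoneurons and all listed target mRNAs. Overlaps and sequence matches used GENCODE vM39, microRNA sequences the RefSeq table. For Igf2bp1, Elavl4 and Fmr1 the 3 genes of most similar pattern were sought, and 1 of them is not reported here.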

Additional observations from a re-analysis of the deposited data

Results flagged for a closer look

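Each group of 4 libraries was searched for a value whose gap to its nearest neighbour took up most of the group's range (Dixon's criterion at the 95% level). Over the 10 genes this gave 40 groups and 3 such values, where chance gives about 1 in 20. Igf2bp1 was low in Hnrnpr-/- somatodendritic replicate 2, at 0.866 CPM against 2.14 to 2.18 CPM in the other 3 libraries. It was high in +/+ axonal replicate 4, at 30.7 CPM against at most 10.6 CPM. Fxr2 was low in +/+ somatodendritic replicate 4, at 68.2 CPM against 83.8 CPM or more.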

How the results depend on the processing

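Under the alternatives tried, no called difference changed direction. Of 260 refits of the 10 genes for +/+ compartments, 13 lost a call and 3 gained one, and of 260 for Hnrnpr-/- compartments, 9 lost and 1 gained one. The calls lost were of Fxr2, Elavl4 and Fmr1, and those gained of Elavl1 and Fmr1 in +/+ and of Fxr2 in Hnrnpr-/- motoneurons. The number of higher members stayed at 4 in each genotype. Leaving out 1 library gave 3 to 4 lower members in +/+ and 2 to 4 in Hnrnpr-/- motoneurons, with 2 without Hnrnpr-/- axonal replicate 3 or 4. With the replicate block, 8 members were called between compartments in each genotype and 0 between genotypes, as without it, and the correlations of same-numbered libraries, 0.08 to 0.35 for +/+ compartments, did not all pass 0.1. There, 4 of 4 pairs correlated best with their own number. Across genotypes, correlations were 0.02 to 0.85 in axons and -0.01 to 0.63 in the somatodendritic compartment. Genotype effects of the members, never called, changed sign in 23 of 170 axonal and 10 of 170 somatodendritic refits, and the compartment difference of that effect in 24 of 250. Over all genes, axonal genotype calls numbered 2 in a fit of all 16 libraries and 0 without Hnrnpr-/- axonal replicate 2, and DESeq2 gave 2 somatodendritic calls. The causes were not tested. The spread of axonal libraries limits what can be seen of genotype effects.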
